A study of Mus musculus with 4 samples.

Results

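Wide control-only regions of naive CD4 T cells are accessible stretches of at least 500 bp that the authors' peak list of the littermate control holds and to which no peak of the Scd1-deficient list comes as near as 1 shared base. On chromosomes 1 to 19 and X they numbered 675 of the 37262 naive control regions of that width (1.81%, Wilson 95% interval 1.68 to 1.95), and of 46576 naive control regions in all, 2686 of which (5.77%) had no knockout counterpart at any width. They were chosen by width and by the absence of a call in the naive knockout, so these values only describe them, and nothing tests the contrast that chose them. They were taken as calls in one list and not in the other, not as changes in accessibility. ATAC-seq marks open chromatin by cutting it with the Tn5 transposase. It was run on untreated primary mouse cells in 4 libraries, 1 per group, so no p-value is given and intervals cover counting error only. The groups were splenic naive CD4 T cells of littermate controls, splenic naive CD4 T cells of SCD1 deficient mice, DN3 thymocytes of littermate controls and DN3 thymocytes of SCD1 deficient mice. Titles mark the control libraries SCD1HZ, which the labels do not explain, and neither age, the deleted part of Scd1 nor the number of animals in a library was given.

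Scd1 encodes stearoyl-CoA desaturase, the enzyme that puts a double bond into saturated fatty acyl chains and so makes monounsaturated fatty acids for membranes and stored lipid. DN3 thymocytes are an early stage of T cell development, at which the T cell receptor beta gene is rearranged. Naive CD4 T cells carry a finished receptor and circulate through lymphoid organs before any encounter with antigen. Open regions away from gene starts are often enhancers, which differ more between cell types than promoters do.

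Few of the regions lay at gene starts, and the promoters among them are shown first because their sequence can be read beside their calls. A start site of a protein-coding gene lay inside 7 of the 646 regions on chromosomes with start sites in the table (1.08%). Of naive control regions of at least 500 bp with a knockout counterpart, 24.6% (8763 of 35615) held one. The 250 bases before a start were overlapped by 8 of the control-only regions, at Stab1, Ms4a6c, Ms4a6b, Ifit3, Slc28a2, Tex48, Fcer2a and Tox3. The naive control had a −log10 q, the authors' peak strength within a list, of 8.3 at Ifit3, 19.1 at Slc28a2 and 7.64 at Tox3, and the naive knockout had no call at any of them. Ifit3, an interferon-induced antiviral gene, was called in neither DN3 library. Slc28a2, a nucleoside transporter gene, was called in the DN3 control (21.7) and not in the DN3 knockout. Tox3, a gene of the TOX family of HMG-box factors, had 57.5 in the DN3 control and 56.0 in the DN3 knockout, and its nearest naive knockout region was 446 kb away. The 250 bases before each start are given 5′ to 3′ on the strand of the gene (RefSeq, GRCm38.p6), at chr19:34583279-34583528 (plus strand) for Ifit3, chr2:122426185-122426434 (plus strand) for Slc28a2 and chr8:90348253-90348502 (minus strand) for Tox3. Capitals mark matches to the motifs searched.
Ifit3: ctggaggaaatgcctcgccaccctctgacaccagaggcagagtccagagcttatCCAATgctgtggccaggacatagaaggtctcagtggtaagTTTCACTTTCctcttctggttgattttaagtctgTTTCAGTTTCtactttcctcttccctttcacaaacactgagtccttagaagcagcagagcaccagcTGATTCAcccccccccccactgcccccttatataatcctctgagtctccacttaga
Slc28a2: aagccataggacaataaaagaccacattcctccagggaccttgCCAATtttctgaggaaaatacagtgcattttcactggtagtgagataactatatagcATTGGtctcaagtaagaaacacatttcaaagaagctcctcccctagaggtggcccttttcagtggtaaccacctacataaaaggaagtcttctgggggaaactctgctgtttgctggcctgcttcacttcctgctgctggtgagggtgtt
Tox3: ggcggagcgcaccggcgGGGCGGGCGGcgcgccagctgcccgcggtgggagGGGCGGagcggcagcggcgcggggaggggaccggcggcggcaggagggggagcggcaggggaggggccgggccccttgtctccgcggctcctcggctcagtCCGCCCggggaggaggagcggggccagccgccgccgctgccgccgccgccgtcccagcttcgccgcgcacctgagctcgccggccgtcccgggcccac
The motifs searched, on both strands, were CCGGAAG (ETS factors), GGGCGG (SP and KLF factors), the CCAAT box, the TATA box with letters TATAAA, the AP-1 site with letters TGANTCA and an interferon response element (GAAA, any 2 bases, GAAA). The Ifit3 promoter held 2 matches to the interferon response element, present in 2.98% of 21045 promoter windows of the same length, with 1 CCAAT box and 1 AP-1 site (6.17% of windows). The Tox3 promoter held 4 matches to GGGCGG, 2 of them overlapping, and 40 CpG pairs against a median of 10 over all windows; GGGCGG stood in 43.1% of windows. The Slc28a2 promoter held 2 matches to CCAAT (35.6% of windows) and no CpG. The region there covered only the last 172 of the 250 bases, so the match at base 44 lay outside it.

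Ms4a6b and Ms4a6c, neighbouring membrane protein genes of the MS4A family on chromosome 19, are shown as a pair because their sequences are alike. Their promoters share an unbroken run of 48 bases, marked in capitals, and reads from 1 copy may be placed at the other, so calls at either are uncertain. The windows are chr19:11518309-11518558 and chr19:11469118-11469367, both on the plus strand, and none of the motifs matched.
Ms4a6b: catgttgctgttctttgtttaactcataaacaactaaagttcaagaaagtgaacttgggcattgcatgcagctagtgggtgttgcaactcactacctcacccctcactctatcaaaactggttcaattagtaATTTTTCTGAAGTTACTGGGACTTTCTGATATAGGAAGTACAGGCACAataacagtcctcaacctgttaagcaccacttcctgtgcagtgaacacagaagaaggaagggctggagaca
Ms4a6c: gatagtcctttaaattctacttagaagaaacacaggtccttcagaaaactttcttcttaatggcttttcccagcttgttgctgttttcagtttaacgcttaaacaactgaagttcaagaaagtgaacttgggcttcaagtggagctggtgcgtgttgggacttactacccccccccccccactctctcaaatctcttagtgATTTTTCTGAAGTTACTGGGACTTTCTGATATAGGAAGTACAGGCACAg
The Ms4a6b region, which covered 140 of the 250 bases, had a −log10 q of 21.0 in the naive control. It was 17.9 in the DN3 control and 19.4 in the DN3 knockout. At Ms4a6c the −log10 q was 11.2 in the naive control and 9.58 in the DN3 knockout, with no call in the DN3 control. Of the other promoters, those of Stab1, Tex48 and the B cell gene Fcer2a (CD23) were called in both DN3 libraries. The Fcer2a region, with 17 fragments at its summit and a −log10 q of 3.28, covered 46 of the 250 bases.

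As a group the regions were weak and not very wide. Their width ran from 500 to 2521 bp with a median of 637 bp, against 1037 bp for naive control regions of at least 500 bp that had a knockout counterpart. Their median −log10 q was 6.29 (quartiles 4.42 and 10.5, highest 96.3) against 83.9, and the median fold over local background was 3.35 against 9.05. The strongest ranked 16981 of 46576 in the control list and the median member 43123. A median of 27 fragments, recovered from fold and p, stood at the summit, with quartiles of 21 and 39.5. Of naive control regions of at least 500 bp, 42.1% of those with a −log10 q under 5 lacked a knockout counterpart, 16.03% of those from 5 to 10, 4.0% from 10 to 20 and 0.13% from 20 upward. At the threshold, regions of 500 bp nearest to Tnfaip8, Lef1 and Iqsec2 (−log10 q 12.7, 10.2 and 5.65) were members, and regions 1 bp narrower nearest to Nyap2, Heatr4 and Zcchc2 (7.64, 6.88 and 6.29) were not.

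The naive lists differed in their lowest local background and in the width of their calls, which bear on which regions meet the rule. The lowest background, which grows with depth and fragment length, was 5.12 fragments in the naive control and 3.65 in the naive knockout, and the median width of all regions was 894 and 732 bp. Their part in the missing calls was not tested. All 7 naive T cell markers had a region within 1 kb of a gene end in both naive libraries. Cd3e, Cd4, Ccr7, Il7r, Lef1 and Tcf7 were among them. The same 7 had one in both DN3 libraries too, so these calls do not tell the cell types apart. Rag1, Ptcra, Il2ra and Notch1 had one in both DN3 libraries. Il2ra and Notch1 had one in both naive libraries too, Rag1 in the naive knockout alone (13.1) and Ptcra in neither. The naive knockout list was the longer, with 51297 regions on the compared chromosomes against 46576 in the naive control. The counts that follow do not allow for this difference in length. In each list of other cells the naive knockout had 1 or 2 more genes with such a region than the naive control: 8 in the control against 9 of 15 B cell genes, 6 against 7 of 20 myeloid genes, 5 against 6 of 14 NK genes, 5 against 7 of 12 CD8 and double-positive genes and 6 against 7 of 16 erythroid and stromal genes. The −log10 q, a value within 1 list, was higher in the naive knockout for 4 of 8 B cell genes called in both naive libraries (Cd40, Cd74, Cd79b and Ebf1; for Cd74 39.6 in the control and 69.1 in the knockout), for 2 of 6 myeloid, 0 of 5 NK, 1 of 5 CD8 and double-positive and 2 of 6 erythroid and stromal genes, and for 1 of 7 naive T cell genes. The other B cell genes called in both, Cd22, Cd79a, Cr2 and Pou2af1, were higher in the naive control. For Pou2af1 the values were 456.2 in the control and 354.6 in the knockout. Some genes of these lists, such as Ms4a1, Csf1r and Lyz2, had no region in either naive library. Others, such as Cd79a, Cr2, Cd14 and Spi1, had one in both. The part of other cells in the missing calls was not tested. In bulk libraries, fewer cells with an open region and a less open region in each cell cannot be told apart.

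**Figure D1:**
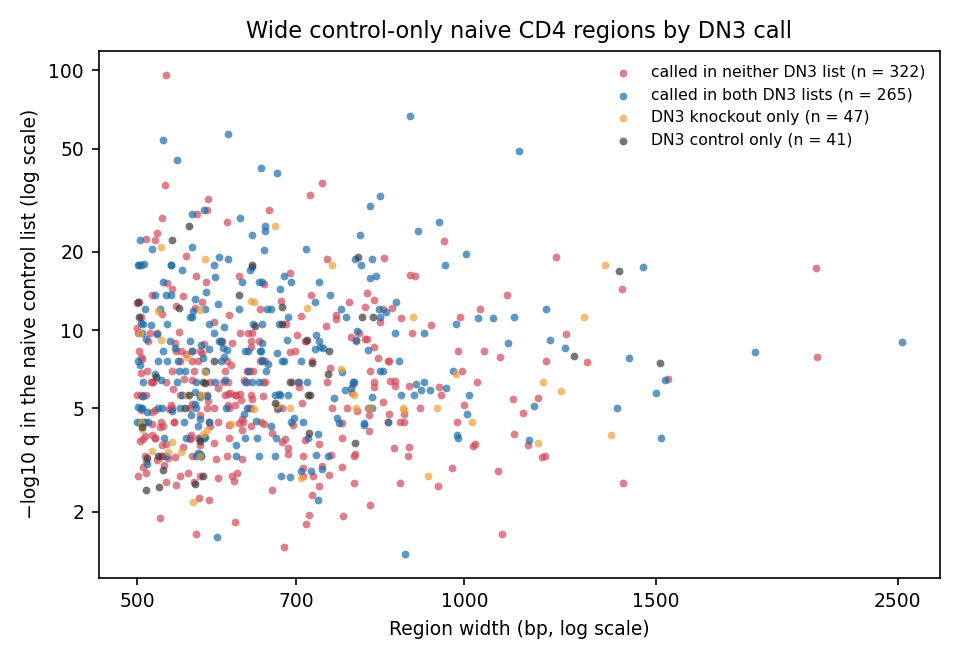
Width (x axis, bp, log scale) and −log10 q in the naive control list (y axis, log scale) of the 675 wide control-only naive regions, 1 point per region, coloured by whether the DN3 libraries hold a call there. Most points lie under 1000 bp and under a −log10 q of 20, and calls in both DN3 libraries (265) and in neither (322) mix over the whole range.

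The DN3 libraries, which the choice of the regions did not use, held a call at 353 of the 675 regions (52.3%, interval 48.5 to 56.0). Both DN3 genotypes had one at 265 (39.3%, 35.6 to 43.0), against 87.9% of all naive control regions of at least 500 bp. Neither had one at 322 (47.7%, 44.0 to 51.5), against 8.87%. The intervals of the member shares exclude these background shares, but regions are not replicates of a genotype. With all lists cut to their 46576 strongest regions, 1509 regions met the rule, 17.43% of them called in both DN3 libraries, 78.06% in neither and 4.506% in 1 only. Weak regions have fewer DN3 calls in general, so the shares were also read by strength. With a −log10 q under 5, 28.0% of members (22.4 to 34.4) and 50.3% of regions with a counterpart (44.7 to 56.0) were called in both DN3 libraries. From 5 to 10 the shares were 40.5% and 63.8%, from 10 to 20 they were 49.3% and 72.0%, and from 20 upward 56.1% (41.0 to 70.1) and 92.0% (91.7 to 92.3). In each band the 95% intervals were apart. However, regions with a counterpart were chosen for a call in a second library and members for the lack of one. A gap in the calls of further libraries can follow in part from that choice, so the intervals do not test it. The last band is open, and regions with a counterpart reach far higher in it (median −log10 q over all of them 83.9) than members, which end at 96.3. In closed bands, chosen after the values were seen, the shares were 51.9% (34.0 to 69.3, 27 members) and 78.4% (76.9 to 79.8) from 20 to 30, and 64.3% (38.8 to 83.7, 14 members) and 87.3% (86.7 to 87.9) from 30 to 100, where the median −log10 q was still lower for members (41.2 against 55.6). Regions of at least 500 bp called in the naive knockout alone numbered 725 (2.01% of 36022). Their shares called in both DN3 libraries were higher than those of the members in each band. They were 58.2% under 5, 68.6% from 5 to 10, 78.6% from 10 to 20 and 81.2% from 20 upward, and 69.5% (66.1 to 72.8) in all. Their −log10 q belongs to the knockout list, so the bands of the 2 lists are not matched in strength. Their median fold was 4.3, against 3.35 for members. The members' share hardly moved with width, at 38.2% under 600 bp, 40.7% from 600 to under 800 bp and 38.7% from 800 bp. For regions with a counterpart it rose over the same widths, from 73.7% to 80.5% and 92.7%.

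**Figure D2:**
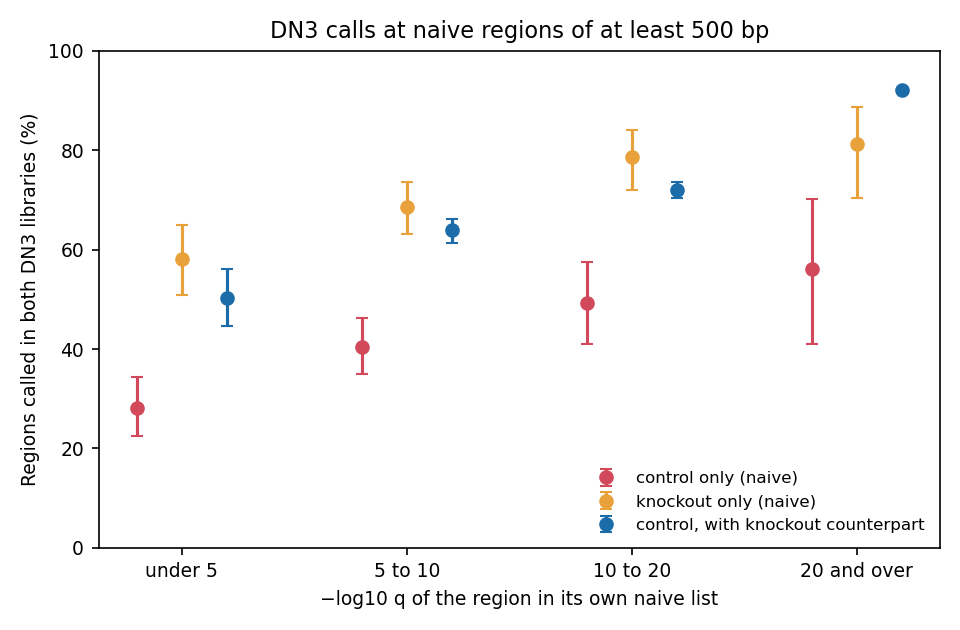
Share of naive regions of at least 500 bp called in both DN3 libraries (y axis, %), by −log10 q in their own naive list (x axis), for control-only, knockout-only and control regions with a knockout counterpart; bars are Wilson 95% intervals. The control-only shares, 28.0 to 56.1%, sit under the others in each band. Bands of the knockout-only regions use the knockout list and are not matched in strength to the others.

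One-sided calls in the DN3 libraries went in both directions. Of the 675 regions, 41 were called in the DN3 control alone (6.07%, 4.51 to 8.14) and 47 in the DN3 knockout alone (6.96%, 5.28 to 9.14), against 1.54% and 1.71% of all naive control regions of that width. The intervals of the member shares overlap. These background shares are not matched for strength. With a −log10 q under 5, 13.6% of members and 11.9% of regions with a counterpart were called in 1 DN3 library only. From 5 to 10 the shares were 11.6% and 9.27%, and the intervals overlapped in both bands. From 10 to 20 they were 16.2% and 7.22%, and in the open band from 20 upward 9.76% and 2.26%, with intervals apart. At the 265 regions called in both, the fold was higher in the DN3 control at 137 (51.7%, 45.7 to 57.6), with medians of 5.28 (control) and 5.11 (knockout). The median log2 ratio of control to knockout fold was 0.01, with quartiles of −0.11 and 0.18, and −0.01 at regions with a naive counterpart. The highest log2 ratios were those inside Dgkg, a diacylglycerol kinase gene (1.41), Cdk5rap1 (1.16), Mtmr7, a myotubularin-related gene (1.09), and Psmd9, a proteasome assembly gene (1.06). The lowest were at Itpr2, an inositol trisphosphate receptor gene (−0.72), and near Ccdc162 (−0.56). At regions with a naive counterpart the log2 ratios ran from −2.12 to 2.04, a range that holds all of these. In Dgkg the DN3 control had a −log10 q of 112.8 against 8.97 for the DN3 knockout, while the naive control region had 3.93.

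**Figure D3:**
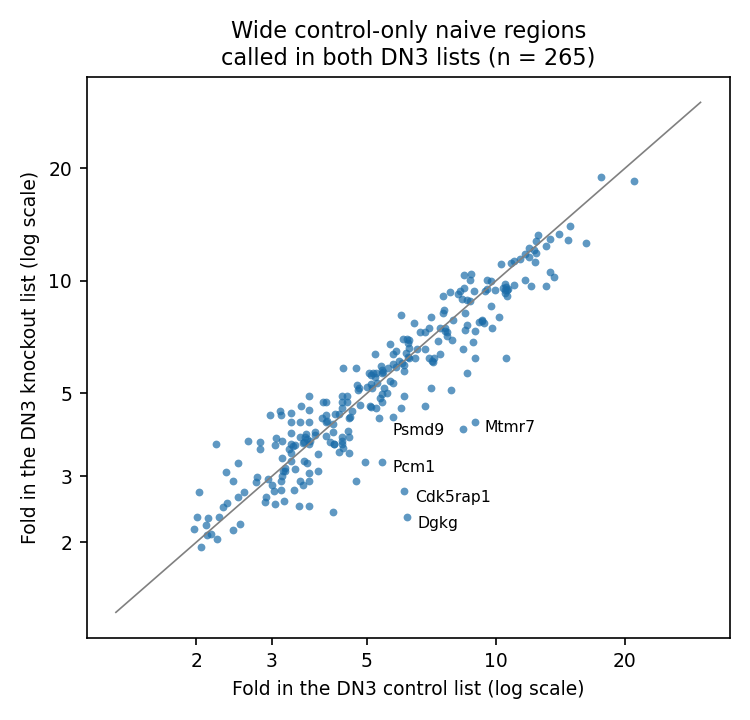
Fold over local background in the DN3 control list (x axis, log scale) and in the DN3 knockout list (y axis, log scale) for the 265 wide control-only naive regions called in both, 1 point per region, with the line of equal fold. Points scatter around the line, 137 of 265 with the higher fold in the control. Labels were given on the control side only, at Dgkg, Cdk5rap1, Mtmr7, Psmd9 and Pcm1. The point farthest on the knockout side, at Itpr2 (log2 ratio −0.72), is not labelled.

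The strongest regions were a mixed set of places. The highest −log10 q, 96.3, was that of chr12:70940897-70941428 inside Actr10, a gene of the dynactin complex. It had 245 fragments at its summit over a local background of 43.4, no call in either DN3 library, and a naive knockout region 2360 bp away. The region inside Mtmr7, chr8:40609534-40610424, had 66.6 and a fold of 12.1 in the naive control, 31.6 in the DN3 control and 7.38 in the DN3 knockout. On the same chromosome the region over the end of Pcm1, a gene of centriolar satellites, chr8:41333677-41334798, had 48.9, then 12.99 and 4.1 in the DN3 control and knockout. Both had a lower DN3 fold in the knockout (8.91 and 4.2 at Mtmr7, 5.42 and 3.29 at Pcm1).

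Others of the 10 strongest were called in both DN3 libraries, with −log10 q values that each belong to their own list. Nearest to Vmn2r129, a vomeronasal receptor gene, the naive control had 57.0, the DN3 control 59.0 and the DN3 knockout 58.1. Near Rps6ka1, a kinase gene of the ERK pathway, the values were 54.1, 52.4 and 59.1, near the chemokine receptor gene Cxcr1 45.0, 58.4 and 53.6, and inside 2610301B20Rik 40.4, 53.7 and 54.0. The region 27.2 kb from Adgre5 (CD97) had 41.9, 7.5 and 7.17. Regions 61.3 kb from Arl4c (36.9) and 264 kb from Ptprc (36.1) had no DN3 call, nor had those inside Paqr3 (33.0), whose nearest gene end is that of Bmp2k, and at the segment Trav16d-dv11 (32.0). The strongest called in the DN3 control alone was one 34.8 kb from Art2b (25.2 in the naive and 6.31 in the DN3 control), followed by those near Slc29a1 (22.2 and 7.99), at Slc28a2 (19.1 and 21.7), inside the interferon-induced gene Rsad2 (17.8 and 18.1) and near Nfam1 (16.9 and 2.44).

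Width and strength did not go together at the top. The widest region, chr6:28921678-28924198 inside Snd1, measured 2521 bp with a −log10 q of 8.97, and was called in both DN3 libraries (8.38 and 5.74). The next, 2110 bp over an end of Cluh, a gene of mitochondrial function, ended 1 bp from a naive knockout region. A region of 2104 bp inside Slc15a2, a peptide transporter gene, had 17.4 and no DN3 call. The others of the 10 widest lay inside Sfpq (1849 bp), Cdkl4, Mapk1ip1l and Dock10, near Tra2b and Cpsf6 and over an end of Mroh3, with widths from 1537 down to 1460 bp after Sfpq. Among them Tra2b, Cpsf6, Sfpq, Mroh3 and Dock10 were called in both DN3 libraries, Mapk1ip1l in the DN3 control alone and Cdkl4 in neither.

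By place, the regions lay in gene bodies more than at gene ends. Within 1 kb of an annotated end of a protein-coding gene stood 54 of 675 (8.0%, 6.18 to 10.3), against 31.1% (30.6 to 31.6) of those with a knockout counterpart and 22.5% (19.6 to 25.7) of the knockout-only regions. Elsewhere inside a gene lay 388 (57.5%) and outside genes 233 (34.5%), against 39.6% and 29.3% of those with a counterpart. Among regions called in neither DN3 library the shares of gene ends were 8.07% for members (5.57 to 11.6) and 3.89% with a counterpart (3.25 to 4.64); among those called in both they were 8.3% (5.55 to 12.2) and 34.5% (34.0 to 35.1). The order of the sets thus turned with the DN3 call. A nearest gene end over 50 kb away was found for 24% of members and 14.6% of regions with a counterpart.

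**Figure D4:**
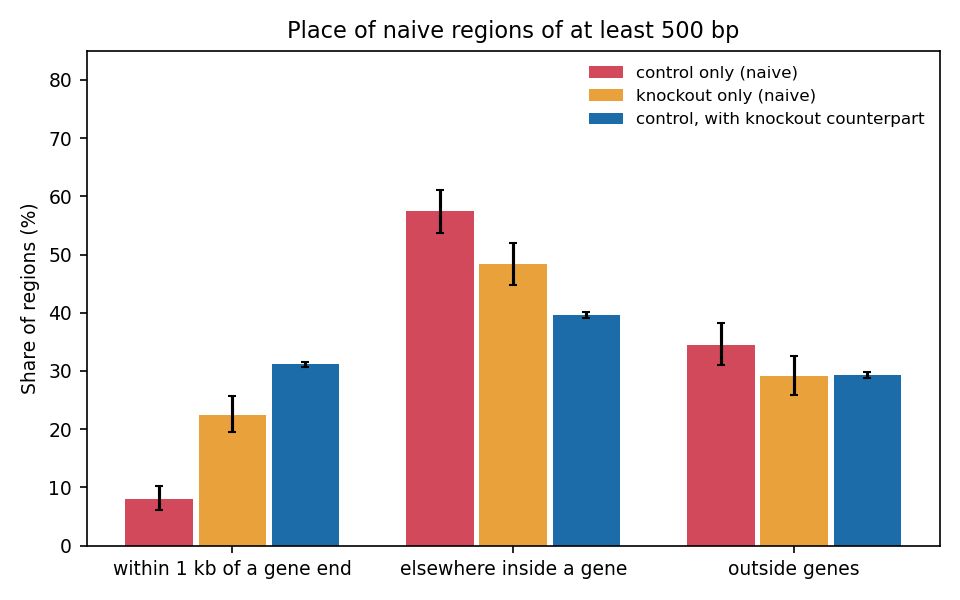
Share of naive regions of at least 500 bp (y axis, %) within 1 kb of a protein-coding gene end, elsewhere inside a gene and outside genes, for the same 3 sets; bars are Wilson 95% intervals. Control-only regions had 8.0% at gene ends against 31.1% of control regions with a knockout counterpart.

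The strongest gene-end regions after that at Pcm1 were near Slc39a14, a zinc transporter gene (29.0, no DN3 call), Arf2 (26.1, with 19.6 and 22.6 in the DN3 control and knockout), LTO1 beside Ccnd1, with the summit inside Ccnd1, the cyclin D1 gene (23.2, with 27.3 and 23.5), and Klf2. The Klf2 region, chr8:72321920-72322877, lay 266 bp from an end of this gene of a quiescence and homing factor. It had a −log10 q of 22.1 on 306 summit fragments, but a fold of only 1.9, since the local background was 160.3 fragments. Neither DN3 library had a call there, and a naive knockout region lay 1391 bp away. A similar place was the end of Il6ra, an interleukin 6 receptor gene, with 208 fragments, a fold of 1.79 and a −log10 q of 12.2.

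A naive knockout region lay within 10 kb of most members. One lay within 100 bp of 7 members (1.04%), within 1 kb of 124 (18.4%, 15.6 to 21.5), within 10 kb of 519 (76.9%) and within 50 kb of 651 (96.4%), with a median gap of 4510 bp. For control-only regions under 500 bp the median gap was 4382 bp. From knockout-only regions of at least 500 bp to the naive control list it was 7889 bp. The member inside Mboat1 adjoined a naive knockout region directly, with no base between them. Within 1 kb it was 15.1% of members called in both DN3 libraries and 19.3% of those called in neither, with overlapping intervals. The members themselves were spread out. With gaps up to 50 kb joined, 558 stood alone, 42 runs held 2, 8 runs held 3, and 1 run each held 4 and 5. By chromosome the share of control regions of at least 500 bp that were members ran from 1.314% on chromosome 16 to 3.39% on chromosome 14 (46 of 1356, 2.55 to 4.5).

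The run of 5 lay over the J segments of the T cell receptor alpha locus on chromosome 14, where V and J segments are joined during T cell development. This locus was chosen after its values were seen. Between chr14:54170391-54225910 the naive control had members nearest to Traj47 (−log10 q 3.93), Traj40 (9.66), Traj32 (4.6) and Traj27 (3.67), and 1 beyond the last segment, nearest to Traj1 (12.2). Their folds were low, from 1.55 to 2.34, on 47 to 352 summit fragments. Of these, Traj32 was called in both DN3 libraries (4.41 and 5.35), Traj47 in the DN3 knockout alone (13.4) and the other 3 in neither. Over the J segments and 10 kb beyond, the libraries had 21 regions in the naive control, 16 in the naive knockout, 14 in the DN3 control and 13 in the DN3 knockout. Further members of the locus lay at the V segments Trav16d-dv11, Trav8n-2 (3.28) and Trav13-4-dv7 (11.3, with 117.1 and 93.4 in the DN3 control and knockout). In all 8 of 45 naive control regions of at least 500 bp at this locus were members (17.8%, 9.29 to 31.3), against 1.81% in the whole list, and the knockout-only regions of that width numbered 1. The 1.81% was not matched for strength. Members at Traj47, Traj32, Traj27 and Trav8n-2 had a −log10 q under 5, where regions of the whole list more often lacked a counterpart. V segments resemble each other in sequence, so calls at them are uncertain. The T cell receptor beta locus had none of 25, which allows a share of up to 13.3%, and the immunoglobulin heavy chain locus 1 of 54, at Ighv1-84 (27.1).

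**Figure D5:**
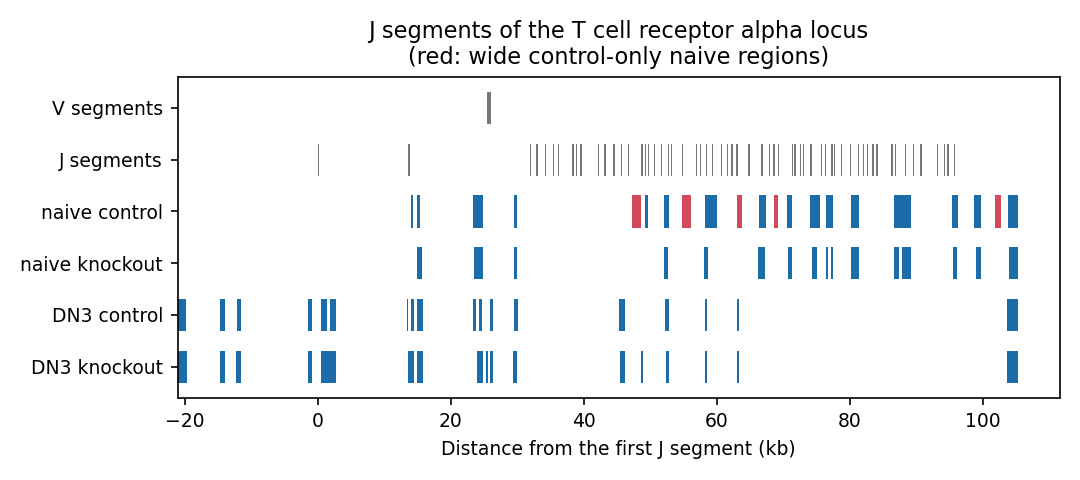
Regions of the 4 libraries over the J segments of the T cell receptor alpha locus; the x axis is the distance from the first J segment (kb), rows are segments and libraries, and bars span each region. The 5 red bars in the naive control row, wide control-only regions, have no bar under them in the naive knockout row.

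Within the body and 10 kb on either side, 587 of 21631 protein-coding genes had at least 1 member, 51 had 2 or more and 11 had 3 or more, and 524 of the 675 regions lay in such a window. Ripor2 and Foxp1, a quiescence factor, had 4 each, of 31 and 60 naive control regions of at least 500 bp. Those of Ripor2 had a −log10 q of up to 11.9, 2 called in the DN3 knockout alone and 2 in neither DN3 library. Those of Foxp1 reached 6.29, 1 called in both DN3 libraries and 3 in neither. Inpp4b, a phosphoinositide phosphatase gene, had 3 of 37, called in neither DN3 library, the highest at 14.5. Ctnnd1, which encodes p120 catenin, had 3 of 6, with a highest −log10 q of 12.1, and Thada 3 of 24, again without a DN3 call. Around Ctnnd1 the full lists held 8 naive control and 4 naive knockout regions.

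The remaining genes with 3 members were Jarid2, a Polycomb cofactor gene, Cd247, Mllt3, a gene of transcription elongation, Pde3b, a phosphodiesterase gene, Pum2, an RNA-binding protein gene, and Ptprc. They had 3 of 14 at Jarid2, 3 of 16 at Cd247 and at Mllt3, 3 of 7 at Pde3b, 3 of 9 at Pum2 and 3 of 17 at Ptprc. None of these 6 genes had a knockout-only region of at least 500 bp in the window. Foxp1 had 1, Ripor2 had 2 and Inpp4b 3. Genes were ordered by their number of members, so these counts are a description and favour long genes.

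Gene lists were counted the same way. T lineage transcription factors had 9 members among 286 naive control regions of at least 500 bp (3.15%, 1.66 to 5.87), against 1.81% over all such regions, at 7 of 28 genes. Inside Tcf12, the E protein gene HEB, the region had a −log10 q of 18.9, inside Tox 16.5 and inside Lef1 10.2, none of them called in DN3 cells. Of the 2 inside Ets1, the one with 16.3 had no DN3 call and the other, with 3.89, had 20.4 and 29.0 in the DN3 control and knockout. The Rora region had 11.7, then 7.66 and 10.5. Genes of the TCR complex and its signalling had 9 members of 242 (3.72%, 1.97 to 6.92) at 5 of 29 genes. Cd247, the zeta chain gene, had regions of 9.19, 5.58 and 1.82, the first also called in both DN3 libraries (4.72 and 5.52). Ptprc, the CD45 gene, had 5.41, 4.34 and 3.41, Fyn 3.53 and Prkcq, the protein kinase C theta gene, 4.1.

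Naive homing and quiescence genes had 8 members of 176 (4.55%, 2.32 to 8.71) at 4 of 22 genes, which were Foxp1, Foxo1, Bach2 and Klf2. The regions of Foxo1, a factor that upholds Il7r, had 5.42 and 3.73 and that of Bach2, a repressor of effector genes, 3.62; neither DN3 library had a call at these 3. Of the 8, the single region with DN3 calls lay inside Foxp1 (4.55 in the naive control, 5.76 and 9.64 in DN3). Cytokine receptor, STAT and SOCS genes had 4 of 156 (2.56%), among them Stat4 (13.6, with 62.4 and 51.5 in DN3), Jak1 (6.01, with 11.3 and 10.3) and a region within Stat5a and near Stat3 (4.33). Interferon response genes had 3 of 52 (5.77%, 1.98 to 15.6), inside Ifit3 and near Ifit2, inside Rsad2 and inside Irf2 (6.29). The intervals of the homing, TCR and interferon lists lay above 1.81%, and those of the T lineage and cytokine lists held it. In all 18 lists were read, and no excess is claimed from these intervals. The 1.81% covers regions of all places and strengths and was not matched to the lists by either. Weak regions lacked a knockout counterpart more often, and several homing and TCR members had a −log10 q under 5. Elsewhere inside a gene than at its ends lay 57.5% of members and 39.6% of regions with a counterpart, so like is not compared with like. Cd247 and Ptprc held 3 each of the 9 TCR members. Genes of a list share neighbourhoods, and the lists were written with earlier results known.

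The lipid lists gave too few regions to tell their shares from the background. Of fatty acid synthesis and desaturation genes, 0 of 86 regions at 29 genes were members, which allows a share of up to 4.28%, and of cholesterol synthesis and uptake genes 0 of 57 (up to 6.31%). Fatty acid oxidation and storage genes had 1 of 63, near Acadm, the medium-chain acyl-CoA dehydrogenase gene (6.29, no DN3 call). No member was found around costimulation and checkpoint receptors (0 of 88), helper and regulatory T cell genes (0 of 69), AP-1 and immediate early genes (0 of 54), CD8 and double-positive markers (0 of 37), myeloid markers (0 of 38), NK markers (0 of 22) or housekeeping genes (0 of 46). Of these, the upper limits ran from 4.18% to 14.9%, all above the 1.81% of the background, so a share equal to it was not excluded at these counts. Survival genes had 2 of 89, at Fas (5.55) and Pim1 (5.9), B cell markers 1 of 28 at Fcer2a, and erythroid and stromal markers 1 of 22 at Pecam1 (4.84).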

How the data were processed

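ATAC-seq peak lists of 4 libraries, 1 per genotype and cell type, were used. The submitters' processing notes name Trimmomatic, BWA, MACS2 and the build mm10; their versions and settings: not given in the sources used here. Each deposited peak has a score (10 times its −log10 q), a fold, which is the ratio of summit pileup to local background after 1 is added to each, and −log10 p and −log10 q values; these are the authors' values within 1 library and were used to describe and rank peaks of that list. Read depth was not given. Summit fragments were recovered from fold and −log10 p for 100% of peaks with a −log10 p under 290, to within 0.05 of a whole number.

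Overlap meant at least 1 shared bp, on autosomes and X only, computed in Python 3.11.15 with NumPy 2.4.6, pandas 2.3.3 and SciPy 1.17.1. Shares have Wilson 95% intervals, and no test was run. The upper limit beside a count of 0 is the upper bound of that interval. Genes and the 250 bases before their starts came from RefSeq (GRCm38.p6, the assembly of mm10), where 382 of 385 list symbols matched; start sites of 1 chromosome were not used here. Members, lists and the rule for named genes (the strongest and widest regions of all, by DN3 call and at gene ends, the 10 genes with most members, and list genes, up to 5 per list) were chosen with earlier results of these data known. Some named genes are not reported here. The overlap, distance and recovery steps were tested on simulated data.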

Additional observations from a re-analysis of the deposited data

Results flagged for a closer look

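Some regions called in the naive control and not in the naive knockout had the opposite pattern in DN3 cells, a call in the knockout alone; 47 of the 675 did so (6.96%, against 1.71% of all naive control regions of at least 500 bp). The matching pattern, a call in the DN3 control alone, was found at 41 (6.07%, against 1.54%), and the intervals of the 2 member shares overlap. Each group has 1 library, and this difference between the cell types was not tested. The 1.71% is not matched for strength. With a −log10 q under 5, the DN3 knockout alone had a call at 8.41% of members and 6.8% of regions with a counterpart. From 5 to 10 the shares were 5.99% and 4.97%, and from 10 to 20 they were 7.35% and 4.04%. From 20 upward they were 4.88% (2 of 41) and 1.15%. At the strongest of the 47, the DN3 knockout had a −log10 q of 7.38 inside Smim4 and Pbrm1 and 12.9 at a region 32.4 kb from Aff3. It had 7.69 near Nsd1, 4.1 inside Zfp618 and 6.68 inside Rictor. Weaker or named elsewhere were those at Ptprc (2.73), Ms4a6c (9.58), Trav8n-2 (3.51) and Traj47 (13.4). Outside the compared chromosomes, the naive knockout list held 12 of its 51309 peaks on chromosome Y, and the naive control 9 of 46585.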

How the results depend on the processing

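The 7 values were recomputed under 49 alternatives, of which 25 stayed within the interval of the reported value or within 1.5 times of the count. The number of regions was 1327 at a minimum of 400 bp, 249 at 700 bp and 57 at 1000 bp, by construction. With all lists cut to their 46576 strongest regions, which takes weak regions from the knockout and DN3 lists, it was 1509, with 17.43% called in both DN3 libraries, 78.06% in neither, 4.506% in 1 only and 11.33% with a knockout region within 1 kb. With a −log10 q of at least 5, 44.47% were called in both and 42.73% in neither, and 57.27% had their summit inside a gene, against 61.19%. Counting only DN3 regions over at least 50% of the member gave 26.67% and 60.89%. At 1000 bp 17.54% were called in 1 DN3 library only, 17.54% lay at gene ends, 52.63% inside genes and 26.32% within 1 kb of a knockout region. Gene ends took 6.179% at 400 bp, 12.85% at 700 bp, 13.48% with a 2 kb window, 3.407% with 200 bp, and 14.07% with all annotated genes, which held 68.44% of summits. Within 5 kb, 54.81% had a knockout region. No paired analysis was possible because each group holds 1 library. Depth limits what weak calls can show: 31.7% of the regions had a −log10 q under 5.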

Other observations

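The 2 strongest chromosome 8 members, inside Mtmr7 and at Pcm1, had a lower fold in the DN3 knockout than in the DN3 control. Their log2 ratios of control to knockout fold were 1.09 and 0.72. Another strong member of chromosome 8, near Adgre5, had a log2 ratio of −0.006. Those near Vmn2r129, Rps6ka1, Cxcr1 and 2610301B20Rik, on other chromosomes, had log2 ratios between −0.13 and −0.04. A run of 4 members stood within 38.6 kb between Art2b, an ADP-ribosyltransferase gene of T cells, and Clpb on chromosome 7 (101609057 to 101647695), 1 called in both DN3 libraries, 1 in the DN3 control alone and 2 in neither. A run of 3 lay on chromosome 15 from 60099642 to 60159753, over 80 kb from its nearest gene end, that of 4933412E24Rik, with a −log10 q of 8.27, 4.41 and 2.6 and no DN3 call. At regions of at least 500 bp called in the naive knockout alone, the fold was higher in the DN3 control at 276 of the 504 called in both DN3 libraries (54.8%, interval 50.4 to 59.1), against 51.7% of control-only regions, and the intervals overlap.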
